A study of Mus musculus with 9 samples.

Results

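The oxidative phosphorylation genes of the mouse outer eye were examined in the choroid (CH), the retinal pigment epithelium (RPE) and the photoreceptors (PR). Members were chosen by gene name alone, as genes of the array whose names start with Ndufa, Ndufb, Ndufc, Ndufs, Ndufv, Uqcr or Atp5, genes named Cox4 to Cox8 with their letters or isoform numbers, and Sdha, Sdhb, Sdhc, Sdhd and Cyc1. This gave 89 of the 31829 gene names on the array, measured by 119 of its 39429 oligonucleotides. They comprised 7 core and 29 accessory subunits of complex I, 4 complex I assembly factors, 4 subunits of complex II, 8 of complex III, 18 of complex IV and 14 of complex V, and 5 genes that the name rule took in without their being core subunits. These last were Ndufa4l2, Cox7a2l, Cox4nb, Atp5s and Atp5sl. RefSeq gives 5 of the genes another symbol, namely Uqcr (Uqcr11), Atp5f1 (Atp5pb), Atp5s (Dmac2l), Atp5sl (Dmac2) and Cox4nb (Emc8). The array's names are kept here.

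Each tissue was laser dissected from frozen eyes of healthy female mice labelled as C57BL/6 and as 6 months old within 2 weeks, with 3 samples per tissue. The study's methods give a slightly lower age and the substrain C57BL/6JOlaHsd, and say that each sample took 1 whole eye. The sources used here do not say whether eyes of 1 mouse were used, or whether samples of different tissues shared an eye, and the p-values measure the spread between these samples only. Amplified RNA of each sample was labelled with Cy5 and hybridized to its own array beside a Cy3-labelled common reference of RPE and choroid RNA, with the same dye orientation on all 9 arrays. A level is given below as the log2 ratio of the tissue over that reference, so that 0 means the level of the reference, and a difference between tissues is a difference of such log2 ratios. Levels of different genes cannot be set against each other on this scale.

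Markers of each layer were measured in the other layers too. Rpe65, which encodes the isomerase of the visual cycle in RPE, was at a log2 ratio of 2.55 ± 0.14 (SD, n = 3) in RPE, at 0.95 ± 0.30 in CH and at -2.99 ± 0.16 in PR. All 12 rod markers and all 8 cone markers were higher in PR than in either other tissue, and 8 of 9 RPE markers were higher in RPE and in CH than in PR. The array of the second RPE sample stood apart, with 91.8% of its spots well above background, against 63.1% to 71.9% on the other arrays. In dissected tissue, fewer cells of a type and less RNA per cell cannot be told apart.

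Oxidative phosphorylation makes most of the ATP of many cells. Complex I takes electrons from NADH and complex II takes them from succinate. Complex III passes them through cytochrome c to complex IV, which reduces oxygen, and the proton gradient built by complexes I, III and IV drives the ATP synthase, complex V. Core subunits carry the redox centres and accessory subunits build the enzyme around them. Several complex IV subunits exist as a widely expressed form and a second form found in heart and skeletal muscle, lung or testis. Photoreceptors pack mitochondria into their inner segments and are among the most energy-demanding cells known. The RPE also is rich in mitochondria and burns lactate and fatty acids, which leaves glucose for the retina, while the choroid is a mixed vascular and connective tissue.

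Motifs of 4 factors known to regulate mitochondrial genes were searched in the promoters of the members. The 250 bases before the start site are shown for 3 subunits that were higher in RPE than in PR and carry such motifs, for Cox8b, which had the widest difference between tissues, and for Cox5a, which was higher in PR. Sequences are from RefSeq on GRCm38.p6, 5′ to 3′ on the gene's strand, with the matches inside the printed bases in capitals.
Atp5k, chr5:108434400-108434649, minus strand: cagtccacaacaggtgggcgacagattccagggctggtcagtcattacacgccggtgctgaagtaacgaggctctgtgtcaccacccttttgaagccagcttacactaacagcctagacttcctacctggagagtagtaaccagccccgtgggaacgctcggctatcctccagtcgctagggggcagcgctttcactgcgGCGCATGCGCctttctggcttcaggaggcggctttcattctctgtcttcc
Cox6a1, chr5:115348959-115349208, minus strand: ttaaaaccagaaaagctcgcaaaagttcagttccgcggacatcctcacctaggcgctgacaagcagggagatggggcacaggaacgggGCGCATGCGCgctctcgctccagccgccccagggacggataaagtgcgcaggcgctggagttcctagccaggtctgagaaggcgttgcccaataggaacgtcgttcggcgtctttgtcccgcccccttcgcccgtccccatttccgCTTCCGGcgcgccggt
Uqcr, chr10:80406822-80407071, minus strand: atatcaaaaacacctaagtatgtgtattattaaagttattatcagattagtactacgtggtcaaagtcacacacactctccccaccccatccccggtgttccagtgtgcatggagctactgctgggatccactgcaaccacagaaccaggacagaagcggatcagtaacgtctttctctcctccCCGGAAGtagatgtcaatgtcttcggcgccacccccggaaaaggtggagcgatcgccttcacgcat
Cox8b, chr7:140900447-140900696, minus strand: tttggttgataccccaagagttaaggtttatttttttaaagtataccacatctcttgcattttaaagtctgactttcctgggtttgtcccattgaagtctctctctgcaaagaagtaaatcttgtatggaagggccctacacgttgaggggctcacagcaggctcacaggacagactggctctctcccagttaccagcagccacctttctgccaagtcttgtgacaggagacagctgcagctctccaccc
Cox5a, chr9:57520982-57521231, plus strand: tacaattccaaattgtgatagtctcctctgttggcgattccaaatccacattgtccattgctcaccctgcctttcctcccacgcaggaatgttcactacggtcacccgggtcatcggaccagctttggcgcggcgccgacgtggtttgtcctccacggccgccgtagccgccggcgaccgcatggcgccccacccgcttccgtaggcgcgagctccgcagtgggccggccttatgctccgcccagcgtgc
In Atp5k, a subunit of the membrane part of the ATP synthase, the capitals mark an NRF1 motif from 50 to 41 bases before the start. In Cox6a1, the common form of a complex IV subunit, they mark an NRF1 motif from 162 to 153 bases and a GABPA motif from 16 to 10 bases before the start. In Uqcr, a small complex III subunit, they mark a GABPA motif from 66 to 60 bases before the start. The NRF1 match reads GCGCATGCGC because the searched letters GCGCATGCG and their reverse complement overlap by all but 1 base. Matches that reach past the start are not shown, namely of NRF1 in Uqcr and of GABPA and ERR in Atp5k.

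The 4 motifs searched, on both strands of windows of 250 bases before to 50 bases after the start, were GCGCATGCG for NRF1, CCGGAAG for GABPA, AAGGTCA for ERR (the estrogen-related receptors) and AAGATGG for YY1. Promoters were given for 72 of the 89 members and for 27025 genes in all. At least 1 of the motifs was in 37 of the 72 members, and 35, among them Cox8b and Cox5a, held none. NRF1 letters were in 12.5% of the members and in 1.95% of all genes, and GABPA letters in 23.6% of the members and 9.93% of all genes. ERR letters were in 11.1% of the members and 5.38% of all genes, and YY1 letters in 16.7% and 7.28%. Among the 35 of these 72 genes that were higher in RPE than in PR, 5 held the NRF1 letters, 10 the GABPA letters, 5 the ERR letters and 8 the YY1 letters. Among the 6 that were higher in PR than in RPE, 2 held the YY1 letters and 0 held any of the other 3. A match is a description of the sequence and not a binding site.

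RPE stood highest for most of these genes. Its mean was the highest of the 3 tissues for 64 of the 89 genes, the PR mean for 20 and the CH mean for 5. RPE was the lowest tissue for 2 genes, Cox7a2l, a factor of respiratory supercomplexes, and Cox8c, which was well above background on only 1 array. For Cox7a2l this depended on the oligonucleotide, since its 3 gave RPE minus CH differences of -0.14 to 0.41. On each of the 3 RPE arrays the median log2 ratio over all members lay between 0.16 and 0.38, against a range of -0.27 to -0.08 for CH and of -0.27 to -0.13 for PR. In the accessory subunits of complex I the array medians were 0.28 to 0.53 in RPE, -0.26 to -0.05 in CH and -0.30 to -0.14 in PR. In complex IV and complex V too, the 3 RPE arrays lay above all CH and PR arrays. In the core subunits of complex I, the RPE range of -0.14 to 0.07 overlapped the PR range of -0.24 to -0.03.

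**Figure D1:**
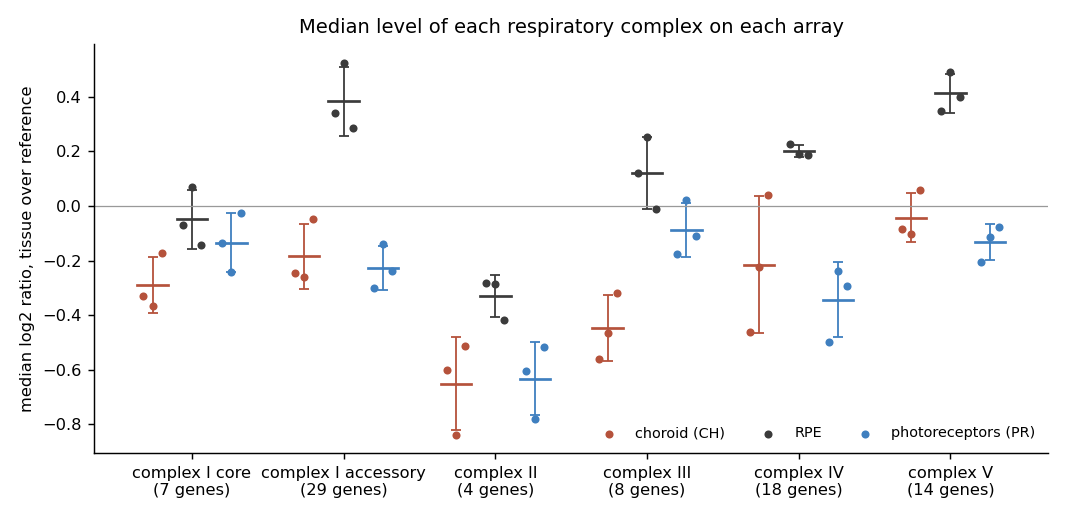
Median log2 ratio of tissue over reference for the genes of each respiratory complex (y axis), with 1 point for each array and the mean ± SD of the 3 arrays of a tissue. The RPE arrays lie above the CH arrays in all 6 groups, while PR arrays lie near RPE in the complex I core and complex III groups and near CH or below it in the other 4.

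The comparison of RPE with CH asked whether these genes set the RPE apart from the layer beneath it. The threshold of the study was applied, a fold change (FC) of more than 2.5 together with a Benjamini-Hochberg (B-H) adjusted p-value under 0.01. At this threshold, 0 of the 89 members were higher in RPE and 0 were higher in CH. Of all 31829 genes, 0.179% were called higher in RPE and 1.75% higher in CH at that threshold. At any fold, 33 members (37.1%) were higher in RPE at an adjusted p-value below 0.01, against 4.79% of all genes, and 0 were higher in CH, against 7.5% of all genes. By unadjusted limma p-values below 0.05, 69 members were higher in RPE and 2 higher in CH, of which 0 differed more than 2.5-fold. The median log2 difference over the members was 0.54, and over all genes it was 0.03. All 36 complex I core and accessory subunits on the array, all 4 complex II subunits, all 8 of complex III and all 14 of complex V had positive differences, as did 55.2% of all genes. In complex IV this held for 14 of 18, in the assembly factors for 3 of 4 and in the genes taken in by name for 3 of 5.

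Markers of several cell types also differed between RPE and CH. The RPE markers were higher in RPE for 7 of 9 genes. The 12 rod markers all had positive differences with a median of 0.57, of which 0 passed by limma and 5 had an unadjusted p-value below 0.05, and their summed Cy5 signal was 1531984 to 1950100 on the RPE arrays and 1099187 to 1638485 on the CH arrays. Higher in CH were 7 of 8 fibroblast, 5 of 7 macrophage and 4 of 8 pigment cell markers. The part of these in the differences of the members was not tested.

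Many of these differences were small and near the threshold. The number of members past the adjusted p-value fell to 9 without the second RPE array, to 7 without the second CH array and to 1 when the arrays were centred on their median in place of the loess correction, which removes dye bias that depends on brightness. It was 0 with the Cy5 signal alone. In a fit within slide 2, which held 2 RPE and 2 CH arrays, 0 passed. That fit called 0 of all genes at the 2.5-fold threshold in either direction, so its count cannot tell about the members. The median difference over all 89 members was 0.44 within slide 2 and 0.65 within slide 3, whose only RPE array was the second one, which stood apart. Over all processing alternatives tried, the median over the members lay between 0.22 and 0.61, and 0 members were higher in CH in any of them.

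Ndufb11, an accessory subunit of the membrane arm of complex I, had the largest difference. Its log2 ratios were 1.01, 1.61 and 1.09 on the RPE arrays and 0.03, 0.08 and 0.37 on the CH arrays, which did not overlap. The difference of 1.08 ± 0.16 (SE) was an FC of 2.11, with an adjusted p-value of 0.00157. Ndufa11, another membrane-arm subunit, had log2 ratios of -0.07, 0.20 and -0.20 in RPE and -0.98, -1.09 and -1.12 in CH, an FC of 2.05 (adjusted p-value 0.0013). Ndufs8, a core subunit that holds iron-sulfur clusters, had log2 ratios of -0.23, -0.17 and -0.33 in RPE and -1.05, -1.26 and -1.20 in CH, and was 0.93 ± 0.09 higher in RPE (adjusted p-value 0.000226). Ndufv3 is an accessory subunit of the NADH-binding part of complex I, and Ndufc2 one of the membrane arm. Their differences, both above that of Ndufs8, were 1.00 ± 0.20 and 0.98 ± 0.19 (adjusted p-values 0.00717 and 0.00608). In these 5 genes the RPE arrays lay above all 3 CH arrays, which the rule for naming them required. RPE and CH arrays did not overlap for 70 of the 89 members and for 38.9% of all genes. Over 29 settings of the processing, the fit within slide 2 among them, Ndufa11 passed in 25, Ndufb11 and Ndufs8 in 24, Ndufc2 in 13 and Ndufv3 in 12.

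**Figure D2:**
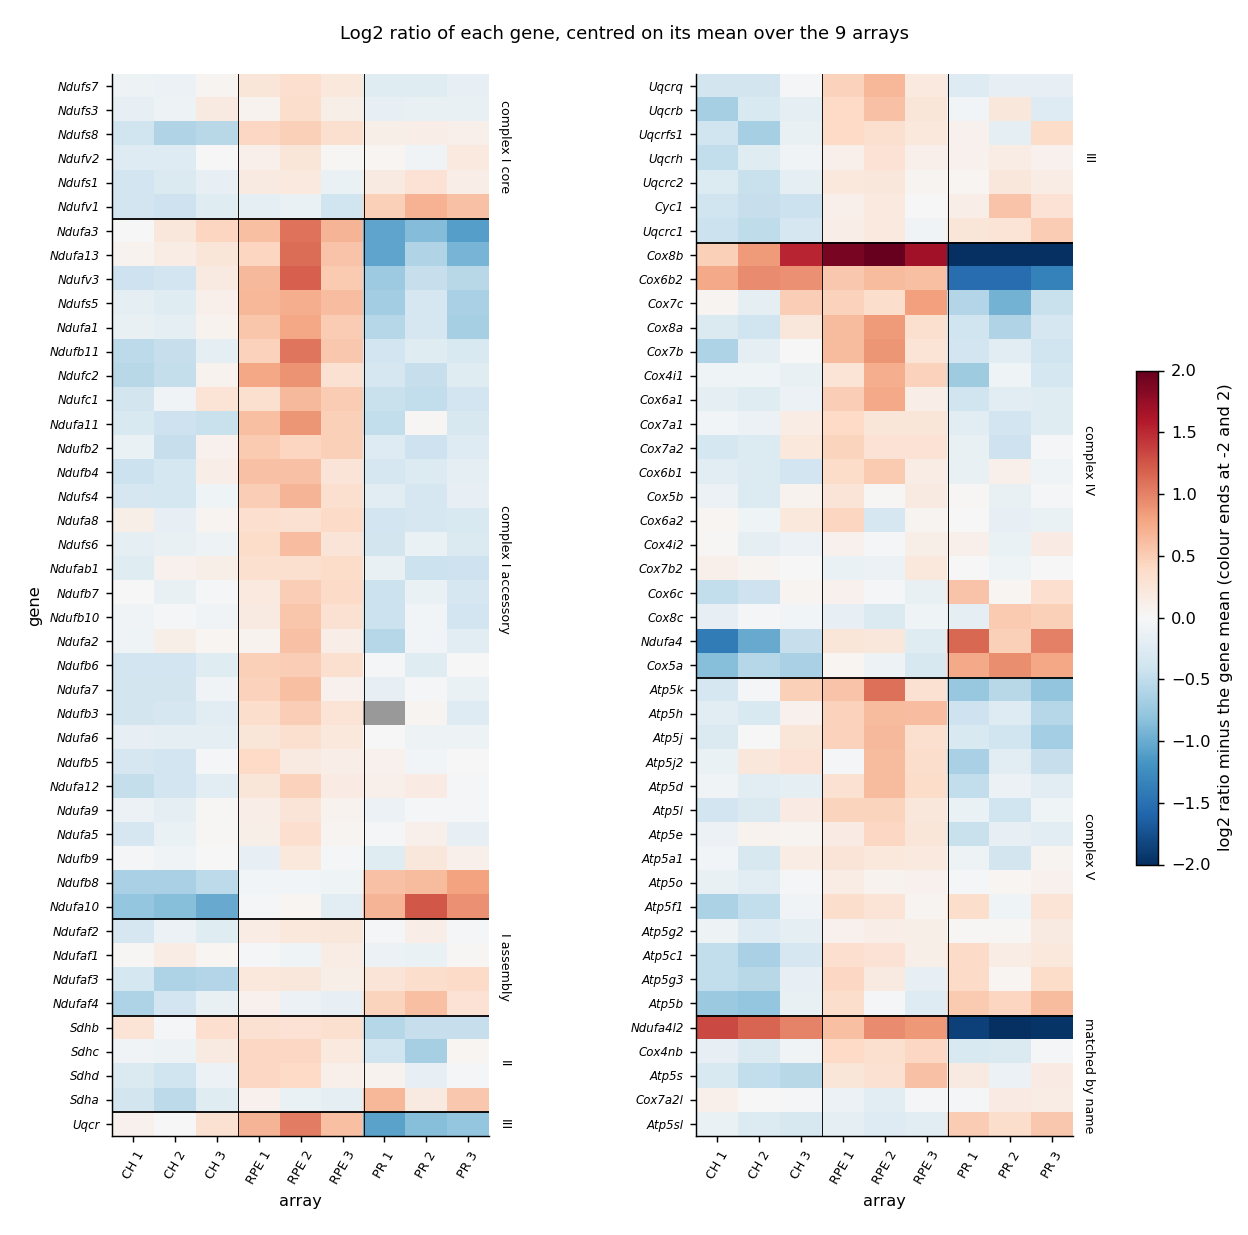
Log2 ratio of the member genes, all but 1, on each of the 9 arrays, minus the gene's own mean, in red above it and in blue below it, with black lines between complexes. Genes are ordered within a complex by the difference of RPE over PR, and the grey cell is Ndufb3 on the first PR array, whose spot was marked as an outlier and left out.

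Compared with PR, 8 members were called higher in RPE and 0 higher in PR, while 10.9% of all genes were called higher in RPE and 5.25% higher in PR. The share of members called higher in RPE, 8.99%, was thus near the share of all genes. Of the 23490 genes well above background on 3 or more arrays, 3464 were called higher in RPE, which is a higher share. At any fold, 40 members (44.9%) were higher in RPE, against 20.7% of all genes, and 6 (6.74%) were higher in PR, against 19.3% of all genes. By unadjusted p-values below 0.05, 12 members were higher in PR, of which 0 differed more than 2.5-fold. The 40 comprised 19 of 29 accessory subunits of complex I and 1 of its 7 core subunits (Ndufs7), 2 of 4 complex II, 2 of 8 complex III, 8 of 18 complex IV and 6 of 14 complex V subunits, and 2 of the 5 genes taken in by name. The median difference over the members was 0.44, and over all genes it was -0.01.

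Cox8b led this comparison. It encodes the form of the smallest complex IV subunit that is known from heart, skeletal muscle and brown fat. Its log2 ratios were 1.14, 1.61 and 0.91 on the RPE arrays, -0.29, 0.09 and 0.76 on the CH arrays, and -3.61, -3.81 and -3.69 on the PR arrays. It was thus high in RPE, intermediate in CH and far lower in PR, with no overlap between tissues. The FC of RPE over PR was 30.4 (log2 difference 4.92 ± 0.25, adjusted p-value 1.94e-07) and that of CH over PR was 14.8 (adjusted p-value 6.99e-07). The difference of RPE over CH, 1.03 with an SE of 0.25, missed the adjusted threshold (adjusted p-value 0.0168). The oligonucleotide lies on chromosome 7 at 148084852 to 148084911 as the array files give it, without naming the assembly. Only 5 of the 89 such positions fell inside the gene on GRCm38.p6.

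Ndufa4l2, a relative of a complex IV subunit that is known as a target of hypoxia-inducible factors and as a marker of pericytes, was high in CH and RPE. Its log2 ratios were 2.53, 2.36 and 2.20 in CH, 1.80, 2.15 and 2.07 in RPE, and -0.67, -0.87 and -0.77 in PR. The FC over PR was 6.85 for RPE (adjusted p-value 8.32e-08) and 8.77 for CH (adjusted p-value 2.75e-08). Cox6b2, the form of a complex IV subunit best known from testis, had log2 ratios of 0.63, 0.82 and 0.79 in CH, 0.42, 0.50 and 0.47 in RPE, and -1.65, -1.65 and -1.47 in PR. Its FC over PR was 4.15 for RPE (adjusted p-value 9.36e-08) and 5.05 for CH (adjusted p-value 2.95e-08). Both genes were thus lowest in PR, and in both the CH arrays lay above the RPE arrays by differences that did not pass (adjusted p-values 0.0714 and 0.0609). For Cox8b, Ndufa4l2 and Cox6b2, the calls against PR held in all 28 settings of the processing, with differences of RPE over PR of 4.16 to 5.39, 2.63 to 3.16 and 1.66 to 2.27.

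Markers of other cell types moved with these 3 genes to unequal degrees. All 12 markers of pericytes and smooth muscle were higher in CH than in PR and 11 of them in RPE than in PR, with median log2 differences of 3.67 and 2.76 and a summed Cy5 signal of 271824 to 424504 on the CH arrays, 171182 to 233444 on the RPE arrays and 21711 to 24549 on the PR arrays. Des and Lmod1, of smooth muscle, were not well above background on any PR array. Pdgfrb, the marker with the largest CH minus PR difference of the 12, was at 2.97 ± 0.33 in CH, 1.91 ± 0.09 in RPE and -3.19 ± 0.12 in PR. Other markers of the vascular and connective layer also were far lower in PR. Against PR, 10 of 10 endothelial, 7 of 8 fibroblast, 7 of 7 macrophage and 8 of 8 pigment cell markers were higher in CH, with median log2 differences of 3.44, 5.48, 3.72 and 5.22. In RPE against PR the counts were 9, 7, 5 and 8, with medians of 3.42, 3.50, 2.34 and 3.70. The part of these cell types in the differences of Cox8b, Ndufa4l2 and Cox6b2 was not tested.

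Markers of skeletal muscle, the tissue of Cox8b, differed far less. Of 20 such genes, 1 was higher in RPE than in PR (Acta1, FC 3.05) and 1 was higher in PR (Mylpf). Of all genes, 20.7% were higher in RPE and 19.3% higher in PR. Their array medians lay between -2.45 and -1.92 in all 3 tissues. The RPE minus PR difference was positive for 16 of them, with a median of 0.35. At unadjusted limma p-values below 0.05, 5 were higher in RPE and 1 in PR. Against PR, 3 were higher in CH and 1 was lower, where 22.4% and 21.3% of all genes were. At unadjusted p-values below 0.05 these counts were 6 and 2. Their summed Cy5 signal was 61246 to 62316 on CH arrays, 47805 to 63625 on RPE arrays and 39139 to 50965 on PR arrays. Of 8 adipocyte markers, 0 were higher in RPE than in PR by limma, and 1 at an unadjusted p-value below 0.05. By limma 2 were higher in PR, Retn and Ucp1, a share near the 19.3% of all genes. Of these, Ucp1 was not well above background on any PR array. Plin1 and Lep were not well above background on any CH or PR array, and Adipoq on none of PR. The summed signal of the 8 was 21640 to 37030 in CH, 7029 to 9273 in RPE and 12020 to 23122 in PR. Between CH and PR, 1 of the 8 was higher in CH (Fabp4) and 1 was higher in PR (Retn). The part of muscle or fat in the Cox8b differences was not tested.

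**Figure D3:**
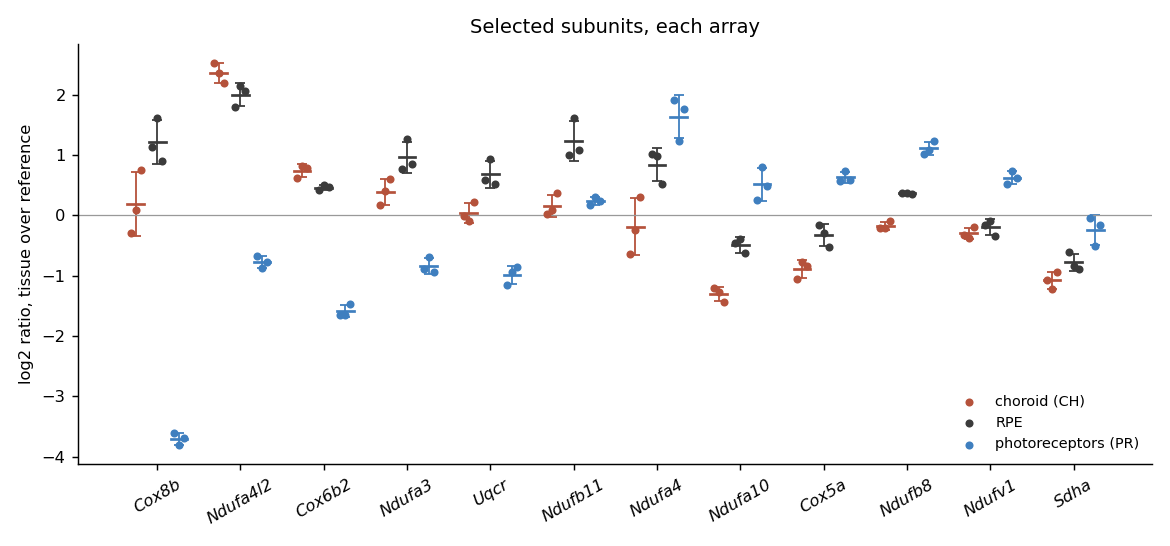
Log2 ratio of tissue over reference (y axis) for 12 selected genes on each array, with the mean ± SD of 3 arrays per tissue. Cox8b, Ndufa4l2 and Cox6b2 sit far lower in PR than in both other tissues, Ndufb11 is highest in RPE, and Ndufa10, Cox5a, Ndufb8, Ndufv1 and Sdha are highest in PR.

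The other called genes were common subunits. Ndufa3, a small accessory subunit of complex I, had log2 ratios of 0.78, 1.26 and 0.85 in RPE, 0.17, 0.40 and 0.61 in CH, and -0.89, -0.69 and -0.93 in PR, and its FC of RPE over PR was 3.49 (adjusted p-value 6.3e-06). Uqcr had log2 ratios of 0.59, 0.93 and 0.52 in RPE and -1.15, -0.94 and -0.86 in PR, an FC of 3.17 (adjusted p-value 5.08e-06), and Ndufa13, a complex I subunit also known as GRIM-19, an FC of 2.98 (adjusted p-value 4.95e-05). Ndufa3, Ndufa13 and Uqcr were higher in CH than in PR too, with FCs of 2.35, 2.02 and 2.04. Ndufv3 and Atp5k only just passed, with FCs of 2.60 and 2.57. Both fell under the threshold without the second RPE array and with slide as a block, which left 6 called members.

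Ndufv3 was measured by 2 oligonucleotides that differed. The brighter one, reported here, gave a log2 difference of RPE over PR of 1.38, while the other gave -0.31 with an adjusted p-value of 0.0993. In CH against PR the brighter one gave 0.38 and the other -0.90 (adjusted p-value 0.000392). In the coordinates of the array files they start at 31668209 and 31665148 on chromosome 17. For RPE over CH the brighter one gave 1.00 and the other 0.59, with unlike calls. Of the 23 members with several oligonucleotides, 17 had the same call from each of them in RPE against PR. The number was 15 in CH against PR and 12 in RPE against CH, and in each comparison 0 had opposite calls.

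The 6 members higher in PR than in RPE were Ndufa10, Cox5a, Ndufb8, Ndufv1, Sdha and Atp5sl, and all 6 were also higher in PR than in CH. Ndufa10, an accessory subunit of complex I related to nucleoside kinases, had log2 ratios of 0.26, 0.81 and 0.48 in PR, -0.45, -0.39 and -0.63 in RPE, and -1.20, -1.27 and -1.44 in CH. Cox5a, a nuclear-encoded complex IV subunit, had 0.57, 0.74 and 0.59 in PR, -0.16, -0.29 and -0.52 in RPE, and -1.05, -0.77 and -0.84 in CH. Both stepped down from PR to RPE to CH with no overlap between tissues. The FC of PR over RPE was 2.01 for Ndufa10 (adjusted p-value 0.00023) and 1.94 for Cox5a (adjusted p-value 9.61e-05).

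Ndufb8 followed the same order, with 1.02, 1.08 and 1.24 in PR, 0.38, 0.38 and 0.36 in RPE, and -0.20, -0.21 and -0.09 in CH, and an FC of PR over RPE of 1.67 (adjusted p-value 6.98e-05). In Ndufa10, Cox5a and Ndufb8, RPE was also higher than CH, by 0.82, 0.56 and 0.54, which passed in 20, 9 and 18 of 29 settings. Ndufv1, the core subunit that binds NADH, had log2 ratios of 0.53, 0.74 and 0.62 in PR, -0.16, -0.09 and -0.35 in RPE, and -0.33, -0.37 and -0.19 in CH. Its RPE and CH arrays overlapped, and PR was higher than RPE by an FC of 1.77 (adjusted p-value 9.53e-05). Sdha, the flavoprotein of complex II, was 1.45-fold higher in PR than in RPE (adjusted p-value 0.00923), a difference that passed in only 10 of 28 settings. For Atp5sl the RPE minus PR difference was -0.68 (adjusted p-value 0.00016).

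Between CH and PR the members were split. At the 2.5-fold threshold, 3 were higher in CH (Cox8b, Ndufa4l2 and Cox6b2) and 3 were higher in PR (Ndufa4, Ndufa10 and Cox5a). Each was 3.37% of the members, where 12.7% of all genes were called higher in CH and 6.1% higher in PR. The Ndufa4 call was lost with slide as a block, and the Cox5a call with median centring. Without normalization within arrays and with the Cy5 signal alone, both were lost. At any fold, 8 (8.99%) were higher in CH and 20 (22.5%) higher in PR, where 22.4% and 21.3% of all genes were. The share of members higher in PR was thus that of all genes. The median difference over the members was -0.05, the same as over all genes. Under the processing alternatives it ranged from -0.37 to 0.37, and it was 0.11 with median centring. RPE and CH are each compared here with the same 3 PR arrays, and RPE with the same CH arrays.

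The genes higher in PR included 4 of 7 core subunits of complex I against 3 of 29 accessory subunits, 3 of 8 complex III subunits (Cyc1, Uqcrc1 and Uqcrc2), and Atp5b, Atp5c1 and Atp5g3 of complex V. Ndufa4, once assigned to complex I and now placed in complex IV, had the largest difference. Its log2 ratios were 1.91, 1.24 and 1.77 in PR, 1.01, 0.98 and 0.52 in RPE, and -0.63, -0.24 and 0.31 in CH, and the FC of PR over CH was 3.55 (adjusted p-value 0.000164). Its differences of RPE from either tissue missed the threshold (adjusted p-values 0.0176 and 0.0252). Ndufa10 was 3.53-fold and Cox5a 2.86-fold higher in PR than in CH (adjusted p-values 2.8e-06 and 2.9e-06).

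Ndufb8 was 2.43-fold higher in PR than in CH (adjusted p-value 1.12e-06). Atp5b, the catalytic beta subunit of the ATP synthase, had log2 ratios of 1.51, 1.42 and 1.63 in PR, 1.35, 0.97 and 0.74 in RPE, and 0.26, 0.22 and 0.84 in CH. It was 2.12-fold higher in PR than in CH (adjusted p-value 0.000859), while its RPE and CH arrays overlapped. A spot of Atp5b and of each Cox8a oligonucleotide was saturated on 1 array.

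In complex II the 4 subunits did not share a pattern. Sdhb, which carries the iron-sulfur clusters, was 1.75-fold higher in RPE than in PR and 1.61-fold higher in CH than in PR (adjusted p-values 0.000157 and 0.000405), with log2 ratios of -0.11, -0.12 and -0.09 in RPE and -0.98, -0.88 and -0.88 in PR. A second, dimmer Sdhb oligonucleotide gave -0.13 for CH against PR in place of 0.69, and 0.70 for RPE against CH (adjusted p-value 0.00107) in place of 0.12. Sdhc, a membrane anchor, had log2 ratios of 0.40, 0.40 and 0.18 in RPE and -0.42, -0.68 and 0.02 in PR, and was 1.61-fold higher in RPE (adjusted p-value 0.00687), which passed in 13 of 28 settings. Sdhd, the other anchor, had -0.45, -0.46 and -0.75 in RPE and -1.14, -1.25 and -0.98 in CH, an FC of 1.49 (adjusted p-value 0.00779) that passed in 10 of 29 settings. Its difference from PR was 0.34 with a 95% interval of 0.08 to 0.61 (adjusted p-value 0.0358). Sdha, with -0.04, -0.51 and -0.16 in PR, -0.61, -0.83 and -0.88 in RPE, and -1.06, -1.22 and -0.95 in CH, was higher in PR than in both other tissues.

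In complex III, Uqcr and Uqcrc1, a core protein, stood at the ends of the order by RPE minus PR difference, with 1.67 and -0.25 (adjusted p-value 0.0828 for the second). Uqcrc1 had log2 ratios of 0.90, 0.92 and 1.15 in PR, 0.79, 0.84 and 0.58 in RPE, and 0.22, 0.15 and 0.31 in CH. It was 1.42-fold higher in RPE than in CH (adjusted p-value 0.00902), which passed in only 7 of 29 settings, and 1.70-fold higher in PR than in CH (adjusted p-value 0.000199). In complex V, Atp5k and Atp5b stood at the ends, with 1.36 and -0.50, the second with an adjusted p-value of 0.0547.

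The tissue forms were then compared with their common partners within each array, which cancels any shift shared by the whole array. The quantity is the log2 ratio of the second form minus that of the common form, so it gives the balance of the forms relative to that in the reference. There were 7 pairs, compared in 21 ways, and an exact two-sided permutation test of 3 against 3 arrays cannot go below p = 0.1, so that adjusted p-values were 0.175 at best. For Cox8b against Cox8a the balance was -0.02 ± 0.13 (SD, n = 3) in RPE, -0.29 ± 0.29 in CH and -3.90 ± 0.08 in PR. Cox8b was thus 14.7-fold higher relative to Cox8a in RPE than in PR (exact permutation p = 0.1), and between RPE and CH the balance differed by less, 0.27 (exact permutation p = 0.2).

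For Ndufa4l2 against Ndufa4 the balance was 2.55 ± 0.64 in CH, 1.17 ± 0.38 in RPE and -2.41 ± 0.26 in PR. The 3 tissues did not overlap, and CH differed from PR 31.1-fold, with Ndufa4 highest in PR and Ndufa4l2 highest in CH. For Cox6b2 against Cox6b1 it was 1.52 ± 0.17 in CH, 0.60 ± 0.18 in RPE and -1.07 ± 0.19 in PR, a 6.04-fold difference between CH and PR. These 3 pairs kept the order of their tissues with median centring, with the Cy5 signal alone and with the median over a gene's oligonucleotides.

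**Figure D4:**
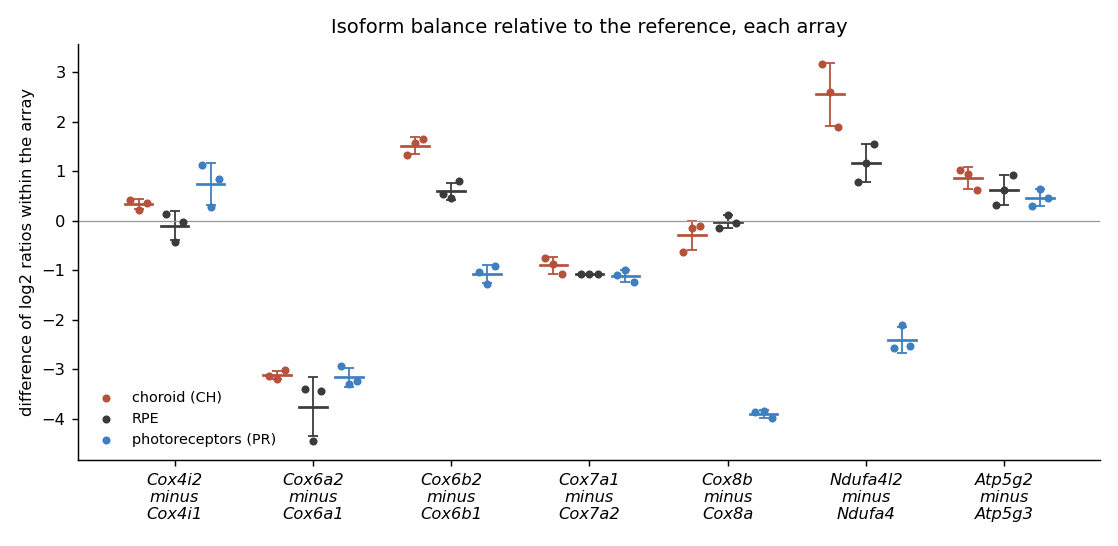
Log2 ratio of the tissue form minus that of the common form within each array (y axis) for 7 pairs, with the mean ± SD of 3 arrays per tissue. The PR arrays sit apart from RPE and CH for Cox6b2, Cox8b and Ndufa4l2, while the other 4 pairs differ by less than 1 between the tissue means.

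The other pairs varied less. Cox6a2, the heart and skeletal muscle partner of Cox6a1, had log2 ratios of -2.90, -3.03 and -2.73 in CH, -2.51, -3.28 and -2.89 in RPE, and -2.94, -3.11 and -3.08 in PR. It was thus far below the reference in all 3 tissues, as was the median of the skeletal muscle markers, and its RPE minus PR difference was 0.15 with a 95% interval of -0.25 to 0.54. Cox7a1, also a heart and muscle form, was between -1.84 and -1.06 on all arrays and was 1.49-fold higher in RPE than in PR (adjusted p-value 0.00111), a difference that turned to -0.066 when arrays were also scaled to a common spread. Its balance against Cox7a2 differed between RPE and PR by only 0.03 (exact permutation p = 0.7). Cox4i2, known from lung and from oxygen-sensing cells, had tissue means of 0.44 to 0.60 and an RPE minus PR difference of 0.02 with a 95% interval of -0.22 to 0.26, while its partner Cox4i1 was 1.83-fold higher in RPE than in PR (adjusted p-value 0.00135). The balance of Cox4i2 against Cox4i1 had an RPE minus PR difference of -0.85. That of Cox6a2 against Cox6a1 differed by -0.64 as RPE minus CH and by -0.60 as RPE minus PR. In each case the arrays did not overlap (exact permutation p = 0.1). With the Cy5 signal alone the first 2 became -0.15 and -0.37, with overlap of arrays (exact permutation p = 0.5 for each). The third was -0.62 there, without overlap.

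Atp5g2 and Atp5g3 encode the same mature ring protein of the ATP synthase. Atp5g3 was 1.59-fold higher in PR than in CH (adjusted p-value 0.00714), a difference that passed in 18 of 28 settings and ranged from -0.99 to -0.00065 as CH minus PR over them, and Atp5g2 differed by -0.27 (adjusted p-value 0.0254). Cox7b2 and Cox8c, forms known from testis, were not well above background on 9 and 8 of the 9 arrays, and no difference is given for them. Among the common forms, Cox6a1, Cox7b and Cox8a were 1.68, 1.91 and 2.06 times as high in RPE as in PR (adjusted p-values 0.00172, 0.00188 and 0.000934). Cox6b1 and Cox7b were higher in RPE than in CH, by 0.64 and 0.85 (adjusted p-values 0.00397 and 0.00914), which passed in 17 and 10 of 29 settings. The array oligonucleotides of the paired forms had 17 to 22 of 60 bases in common at their best ungapped alignment.

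The mitochondrial genome encodes the hydrophobic centres of complexes I, III, IV and V. Of its 13 protein genes 12 were on the array, and by limma 0 of these passed between RPE and CH, with a median difference of 0.24 and 1 at an unadjusted p-value below 0.05. All 12 had positive RPE minus PR differences and 3 passed, namely ND2 (log2 difference 1.26, adjusted p-value 0.000287), ND5 (1.10, 0.0096) and COX1 (1.18, 0.0037), a share near the 20.7% of all genes higher in RPE. Between CH and PR only ND2 passed, with 1.49 (adjusted p-value 7.74e-05), and 3 had an unadjusted limma p-value below 0.05, all higher in CH. The 12 genes are transcribed from 1 genome as long precursors and are not independent.

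Of 25 assembly factors outside the naming rule, 13 were higher in PR than in CH and 0 higher in CH, where 21.3% and 22.4% of all genes were. As a share, the 6 higher in PR than in RPE lay near the 19.3% of all genes, and 0 were higher in RPE, where 20.7% of all genes were. At unadjusted limma p-values below 0.05, 1 was higher in CH than in PR and 3 in RPE than in PR. Lyrm7, which matures the Rieske protein of complex III, was 1.86 higher on the log2 scale in PR than in RPE, and Cox10, needed for the haem of complex IV, was 2.06-fold higher, though well above background on only 2 of the 3 RPE arrays. Against CH, 5 were higher in RPE and 1, Ttc19, was lower. Of all genes, 4.79% were higher in RPE and 7.5% higher in CH. The 4 complex I assembly factors within the members showed 0 differences between RPE and PR by limma, 1 at an unadjusted p-value below 0.05, and 2 of them, Ndufaf3 and Ndufaf4, were higher in PR than in CH.

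Among 20 carriers and partners of the chain, 9 were higher in RPE than in PR, where 20.7% of all genes were. As a share, the 5 higher in PR lay near the 19.3% of all genes. Of these 5, Ucp1 was well above background on 1 RPE and 0 PR arrays, and Slc25a31 on 1 RPE and 2 PR arrays. Etfb, which feeds electrons from fatty acid oxidation into the chain, was 9.01-fold higher in RPE than in PR (adjusted p-value 9.4e-07), and its partners Etfa and Etfdh were also higher. Ucp2, an uncoupling protein of the inner membrane, was 3.73-fold higher, and Gpd2, the mitochondrial glycerol phosphate dehydrogenase, 4.48-fold. Etfb, Ucp2 and Gpd2 were also higher in CH than in PR, 4.76-fold, 3.77-fold and 4.25-fold. Their differences between RPE and CH did not pass (limma adjusted p-values 0.0114, 0.930 and 0.797). Etfdh too was higher in CH than in PR, 1.43-fold. Etfa was not, and it was 1.61-fold higher in RPE than in CH (adjusted p-value 0.00117). The adenine nucleotide carriers went opposite ways, with Slc25a4 1.77-fold higher in RPE (adjusted p-value 0.0038) and Slc25a5 1.71-fold higher in PR (adjusted p-value 0.000561).

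Of the regulators of mitochondrial biogenesis, 0 of 21 passed between RPE and CH by limma and 8 had an unadjusted p-value below 0.05, 4 in each direction. In RPE against PR, 3 were higher in RPE, 8 were higher in PR and 10 did not pass, where 20.7% and 19.3% of all genes were higher in RPE and in PR. Esrrb and Esrrg, orphan nuclear receptors of the ERR family, were 6.84-fold and 4.60-fold higher in PR (adjusted p-values 2.75e-06 and 2.5e-05), while their relative Esrra was 1.68-fold higher in RPE (adjusted p-value 0.000132). The coactivator Ppargc1b was 4.12-fold higher in PR, and Ppargc1a differed by 0.05 (adjusted p-value 0.878). Of the hypoxia-inducible factors, Epas1 was 11.4-fold higher in RPE and Hif1a 3.50-fold higher in PR. Nrf1 was 0.46 higher in PR (adjusted p-value 0.00304), and Gabpa differed by -0.06 (adjusted p-value 0.679).

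Slides and tissues were partly entangled. Slide 1 held 2 PR arrays alone, slide 2 held 2 CH and 2 RPE arrays, and slide 3 held 1 array of each tissue. The RPE array on slide 3 was the second one, which stood apart in its share of spots well above background. With slide as a block, the members past the adjusted threshold fell from 40 to 12 for RPE over PR, from 6 to 4 for PR over RPE, from 20 to 10 for PR over CH and from 33 to 24 for RPE over CH. Within slide 3, where no test is possible, the median over all members was 0.56 for RPE minus PR and -0.10 for CH minus PR. There the difference of RPE over PR was 5.43 for Cox8b, 3.02 for Ndufa4l2, 2.15 for Cox6b2, -1.20 for Ndufa10 and -1.03 for Cox5a.

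**Figure D5:**
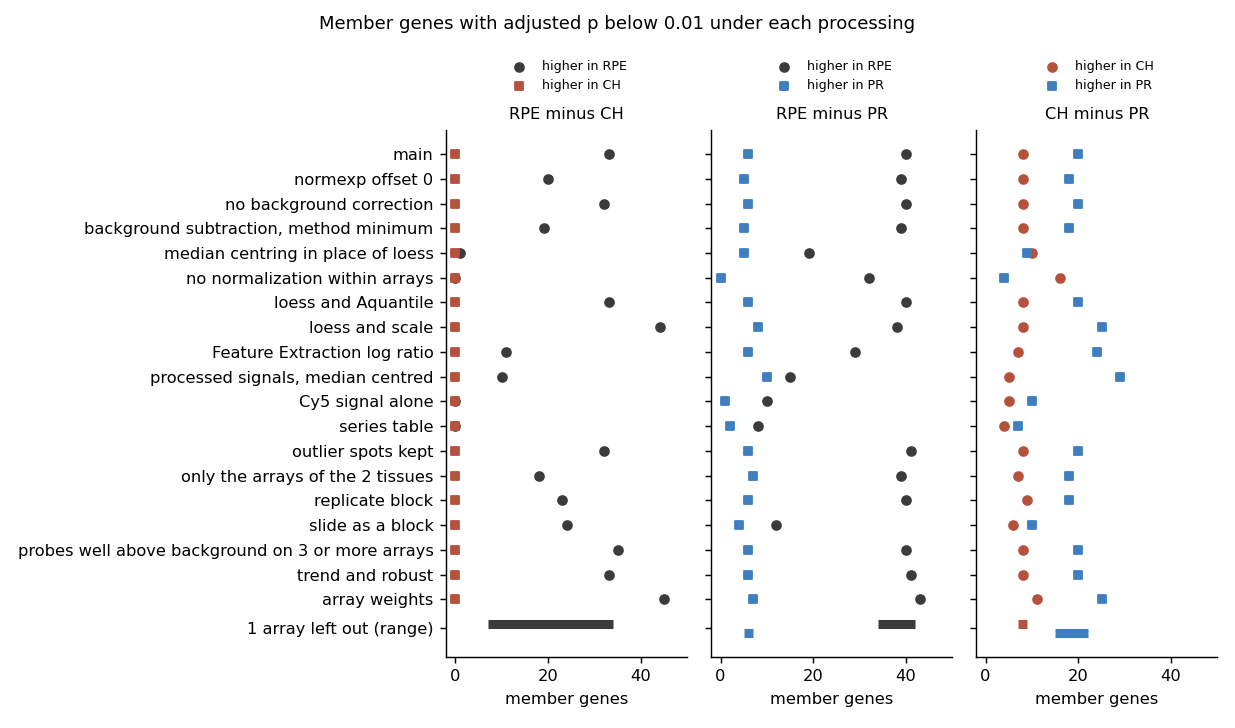
Number of the 89 genes with an adjusted p-value below 0.01 at any fold (x axis) under each processing (y axis), by direction, for the 3 comparisons, where the bottom row spans the counts with each array left out in turn. The count higher in RPE than in CH runs from 0 to 45, while 0 genes are higher in CH under any processing.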

How the data were processed

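The authors deposited Feature Extraction 9.5.3.1 output of 9 dual-colour arrays, in which mean signal and background are intensity values as scanned. Their deposited log10 ratio and processed signal columns, together with a table of the whole series that holds the authors' log2 values of the Cy5 channel by steps not named in the sources used here, served as alternatives. Both channels were corrected by normexp (offset 50) and loess within arrays in limma 3.58.1 (R 4.3.3). Control spots had weight 0, outlier spots were left out and spots of an oligonucleotide were averaged, so that every value is a log2 ratio of Cy5 over Cy3. Tissue means were compared over all 9 arrays with eBayes, without slide or replicate terms, and p-values were adjusted by Benjamini-Hochberg over 39429 oligonucleotides. A gene is represented by its brightest oligonucleotide. No counts exist, and the number of arrays limits the precision. Among the members, 87 of 89 genes were well above background on all arrays. The shares given for all genes include many that were not.

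Named genes are all isoform pairs, all complex II genes, the 5 largest differences per comparison and direction among those with an adjusted p-value below 0.01 and no overlap of arrays, and the ends of each complex in RPE against PR. Of the genes so named, 1 is not reported here. Other names were chosen after their values were seen. Members, lists and tests were chosen with earlier results of these data known. The fit was tested on simulated data. Alternatives were background correction, normalization, channel, filter, block, threshold, choice of oligonucleotide and each array left out.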

Additional observations from a re-analysis of the deposited data

How the results depend on the processing

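Most settings below changed 1 choice, while the processed signals, Cy5 alone, the Feature Extraction log ratio and the series table each replaced several steps together. Members called at the 2.5-fold threshold were 8 for RPE over PR, 3 for CH over PR and 3 for PR over CH, with a replicate block as without it. Whether same-numbered samples belong together could not be told. The deviations of same-numbered arrays correlated between -0.076 and 0.289, and those of differently numbered arrays between -0.314 and 0.247. The arrays numbered 2 also shared slide 3. With the replicate block, 23 in place of 33 members passed at any fold for RPE over CH, 40 for RPE over PR, 6 for PR over RPE, 9 for CH over PR and 18 for PR over CH.

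With each array left out in turn, called members ranged from 6 to 9 for RPE over PR and from 3 to 4 for CH over PR and for PR over CH, and at any fold from 7 to 34 for RPE over CH, 34 to 42 for RPE over PR, 5 to 7 for PR over RPE, 7 to 9 for CH over PR and 15 to 22 for PR over CH. The counts for RPE over CH were 10 without the first and 7 without the second CH array, and 8 without the first and 9 without the second RPE array. Without a fold threshold the counts were 33 for RPE over CH, 40 for RPE over PR, 6 for PR over RPE, 8 for CH over PR and 20 for PR over CH. Above 1.5-fold they were 25, 35, 5, 8 and 16 in the same order. Above 2-fold they were 3 for RPE over CH, 1 for PR over RPE, 6 for CH over PR and 6 for PR over CH. The 2-fold count for RPE over PR is not reported here.

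Called members for RPE over PR were 15 without normalization within arrays, 5 with processed signals, 4 with Cy5 alone and 5 in the series table. For CH over PR they were 6 with median centring and 7 without normalization. For PR over CH they were 1 without normalization, 5 with the Feature Extraction log ratio and 6 with processed signals. At any fold, RPE over CH gave 20 with offset 0, 19 with minimum subtraction, 1 with median centring, 0 without normalization, 11 with the Feature Extraction log ratio, 10 with processed signals, 0 with Cy5 alone, 0 in the series table, 18 in a fit of the arrays of those tissues alone and 0 within slide 2. RPE over PR gave 19 with median centring, 15 with processed signals, 10 with Cy5 alone, 8 in the series table and 12 with slide as a block. PR over RPE gave 0 without normalization, 10 with processed signals, 1 with Cy5 alone and 2 in the series table. CH over PR gave 16, 5, 5 and 4 under those settings. PR over CH gave 9 with median centring, 4 without normalization, 10 with Cy5 alone, 7 in the series table and 10 with slide as a block. The fit within slide 2 called 0 of all genes at the 2.5-fold threshold. Without normalization the median of all genes itself moved to 0.15, 0.40 and 0.15 for RPE minus CH, RPE minus PR and CH minus PR.

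Of the differences past the adjusted threshold in genes named by the rule above, 1 turned. This was Cox7a1 for RPE minus PR, at -0.066 with scaling between arrays (limma adjusted p-value 0.688). Of the 20 members higher in PR than in CH, 18 kept that sign without normalization. The balance of Cox7a1 against Cox7a2, as RPE minus PR, went from 0.03 to -0.30 with median centring. The causes of these changes were not tested.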
